A study of Mus musculus with 36 samples.

Results

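LPS and the ligand labelled HMW were given to dendritic cells together (LH) and singly (L and H), and the pair was compared with each single ligand. The 6 libraries labelled LH_1, LH_2, L_1, L_2, H_1 and H_2 were chosen by their titles from 36 libraries. The assay was ATAC-seq: a transposase cuts and tags DNA where nucleosomes leave it exposed, and reads gather there into peaks, mostly at promoters and enhancers. The cells were bone marrow cells of female C57BL/6J mice aged 6 to 8 weeks, grown with GM-CSF, plated overnight and stimulated for 6 h. The whole series holds 18 groups of 2 libraries, with single ligands, pairs and triplets of pattern recognition receptor ligands. Besides L, H and LH, an unstimulated group (Ctrl) gave the starting level of each peak. The groups PL, PH and PLH, which also received the ligand labelled PAM, gave the same additions of HMW or LPS in other libraries, with PAM present. The labels name no genetic change in these groups. The labels give no ligand dose, do not spell out HMW, and do not say whether the 2 libraries of a group came from separate mice or cultures. P-values therefore measure only the spread between these libraries, which may be technical.

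LPS is a component of the outer membrane of Gram-negative bacteria. It is bound by TLR4 with MD-2 and CD14, and signals through the adaptor MyD88 to NF-κB and AP-1 and through TRIF to IRF3 and interferon-β. Dendritic cells answer such signals by opening enhancers of cytokine, chemokine and antiviral genes, by raising costimulatory molecules, and by closing part of the chromatin that marks resting myeloid cells. GM-CSF cultures of bone marrow hold macrophage-like cells beside dendritic cells, and the labels name no sort. In a bulk library, fewer cells with an open site cannot be told apart from less opening per cell.

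Total counts of the L, H and LH libraries ranged from 22427354 to 30197383. A peak spanning the mitochondrial genome, left out of all tests, held 44.1% to 44.6% of the counts in L, 49.9% to 53.4% in H and 49.8% to 53.4% in LH, and 60.1% to 61.9% in Ctrl. Counts outside it ranged from 11597648 to 16530431. Of these, the highest remaining peak (chr1:24611386-24616337) held 13.24% to 13.54% in L, 16.48% to 19.05% in H and 16.43% to 19% in LH. In Ctrl this peak held 25.11% to 26.98% of the counts outside the mitochondrial genome. It was kept in the totals used for scaling, and its part in the results was not tested. L libraries stood apart from H and LH in both shares. Replicates correlated at r = 0.969 in L, 0.965 in H and 0.967 in LH, across log2 CPM of peaks (the peak's share of the library's counts, scaled by TMM), which are not independent. All 14 dendritic and myeloid genes on the list used to check the label, among them Itgax (CD11c), Csf1r, Flt3 and Zbtb46, had a tested peak. Peaks of 7 of 8 neutrophil genes summed to 48.5 to 51.0 CPM in L, 41.9 to 51.6 in H and 52.6 to 53.3 in LH, against 757 to 906 CPM for the myeloid list over the 6 libraries. A tested peak was found for 3 of 6 T and NK cell genes, which summed to 25.3 to 30.4 CPM over the 6 libraries, for 4 of 6 B cell genes (37.7 to 44.1 CPM), for 2 of 6 erythroid and mast cell genes (10.4 to 14.7 CPM), for 3 of 4 plasmacytoid genes (189 to 217 CPM) and for 4 of 5 stromal genes (101 to 120 CPM). These sums run over unlike numbers of peaks and are not levels per peak. The myeloid list has 135 tested peaks and the neutrophil list 11. The T and NK cell list has 6, B cell 17, erythroid and mast cell 2, plasmacytoid 40 and stromal 27. The part of such cells in the results was not tested.

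LPS changed the chromatin of HMW-treated cells at many sites, and HMW changed that of LPS-treated cells at few. Between LH and H, 3168 peaks were higher and 1344 lower among 119464 tested (3.78% called, edgeR quasi-likelihood test, Benjamini-Hochberg adjusted p under 0.05). Against Ctrl, L changed 22.3% of peaks, H 10.7% and LH 21.8%, and L and H differed at 3.71% (2.3% higher in L, 1.41% lower). Scaling by total counts moved these splits: H against Ctrl went from 6224 higher and 6519 lower to 13227 and 1201, LH against Ctrl from 13523 and 12504 to 23150 and 4515, and L against H from 2744 and 1686 to 5615 and 839. Of the peaks called between LH and H, 1813 were at least 2-fold higher and 614 at least 2-fold lower. Between LH and L, 30 peaks were higher (0.0251%) and 47 lower (0.0393%), or 0.0645% called, and 9817 (8.22%) passed an unadjusted p under 0.05. The pair lay above both single ligands at 12 peaks (0.01%) and below both at 16 (0.0134%). Leaving out either LH or either H library left 1909 to 2203 peaks called between LH and H. Between LH and L, 0 peaks were called without LH replicate 2 (6753 at an unadjusted p under 0.05, edgeR), 4 without L replicate 1, 12 without L replicate 2 and 12 without LH replicate 1, so each LH against L call given here is lost in at least that first case.

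**Figure D1:**
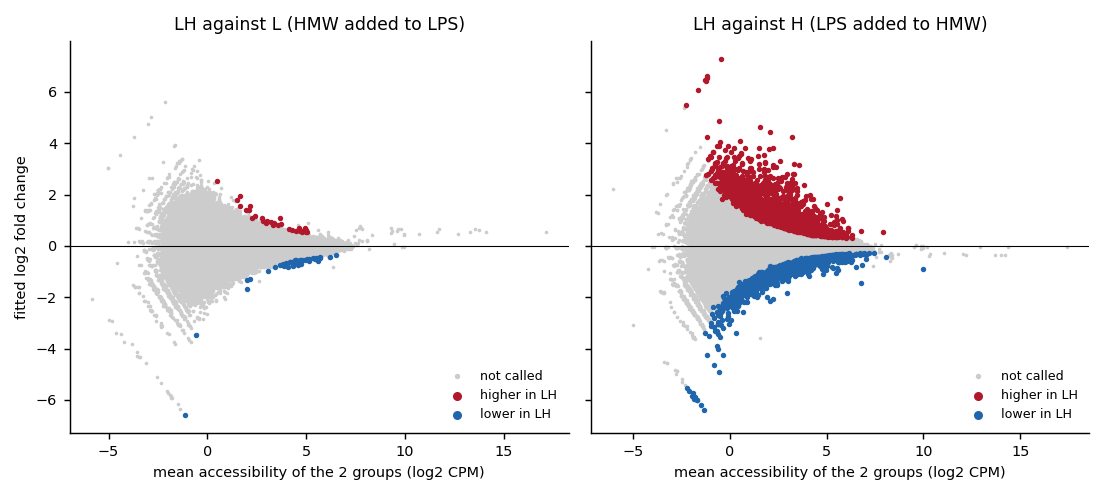
Fitted log2 fold change (vertical axis) against mean accessibility of the compared groups (horizontal axis, log2 CPM, TMM-scaled) for all 119464 tested peaks. Red and blue points are peaks called higher and lower in LH; 77 are coloured for LH against L on the left and 4512 for LH against H on the right.

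Most peaks that rose when LPS was added to HMW also rose with LPS alone. Across the 3168 peaks higher in LH than in H, the median level was 2.90 CPM in Ctrl, 3.60 in H, 7.02 in L and 8.04 in LH. Of them, 2185 had also risen in L against Ctrl, a comparison that shares no library with LH against H. That is 69.0% of the 3168 and 16.3% of the 13436 peaks that rose with LPS, beside 11.2% of all tested peaks rising with LPS. Only 13 of the 3168 had fallen in L against Ctrl. The 1344 peaks lower in LH than in H had a median of 8.42 CPM in Ctrl, 8.28 in H, 5.22 in L and 4.37 in LH. Of these, 651 (48.4%) had fallen with LPS alone, which is 4.92% of the 13239 peaks that fell, beside 11.1% of all tested peaks. The split with LPS alone depended on scaling: by total counts, 31161 peaks rose and 3925 fell in L against Ctrl.

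Among called peaks with a mean of at least 1 CPM, the 5 with the largest gain of LH over H lay in or near genes of none of the lists used here. The peak 162006 bp from Ibtk (chr9:85524612-85525353), an inhibitor of Bruton's tyrosine kinase, read 1.33 and 0.345 CPM in H against 18.3 and 16.6 in LH. LPS alone gave 13.8 and 18.6 there and Ctrl 0.656 and 0.965, so that the L and LH libraries were high and the Ctrl and H libraries low without overlap. Its log2 fold change was 4.26 ± 0.27 (SE, n = 2 per group, edgeR adjusted p = 1.76e-32). The other peaks with the highest values were in Samd12 (4.64 ± 0.47), 9034 bp from Gna13 (4.44 ± 0.41), which encodes a G protein alpha subunit, in Arhgap27 (4.11 ± 0.66) and 105314 bp from Iqub (3.81 ± 0.61). At the Samd12 peak, LH (6.12 and 5.24 CPM) also lay above both L libraries (3.89 and 1.78), but LH against L was not called (edgeR adjusted p = 0.16). By the same rule, the largest losses were in Myo1c, an unconventional myosin (log2 -3.38 ± 0.70), Cnga3 (-2.89 ± 0.71), and near Lmln, St3gal1 and Trappc10. These 5 were small peaks, from 0 to 0.635 CPM in LH and from 1.52 to 2.93 in H. DESeq2 set 4 of them (all but Lmln) aside as too low, with no adjusted p. The Myo1c and Lmln calls were lost without LH replicate 1 and the other 3 without LH replicate 2, Cnga3 also without H replicate 2 and St3gal1 without H replicate 1.

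Among the gene lists, NF-κB genes had the largest share of peaks higher in LH than in H. NF-κB subunits dimerize to bind DNA and are held in the cytoplasm by IκB proteins. Of 124 tested peaks in or within 2 kb of 14 genes for subunits and inhibitors, 22 (17.7%) were higher in LH than in H and 3 (2.42%) lower, against 2.65% and 1.13% of all tested peaks, with a median log2 change of 0.22 against -0.01 over all peaks. The 22 were not spread evenly: 15 were peaks of Nfkb1, which encodes p105 and p50 and has 41 tested peaks. In its strongest peak (chr3:135672132-135672881), H libraries read 6.73 and 6.98 CPM and LH libraries 21.8 and 20.5. L gave 19.3 and 18.5 and Ctrl 4.81 and 3.86. LH against H was 1.63 ± 0.18 (log2, edgeR adjusted p = 1.75e-13) and LH against L 0.16 ± 0.16 (adjusted p = 0.853), so LH stood with L. Tnip1, which encodes a partner of the ubiquitin-editing enzyme A20, rose by 0.94 ± 0.13 in its strongest peak, from 16.3 and 14.5 CPM in H to 31.6 and 27.7 in LH. Peaks of Nfkb2 (0.38 ± 0.10) and of Tnfaip3, which encodes A20 (0.70 ± 0.17), also rose, and both calls were lost without LH replicate 1 or either H replicate. The 3 lower peaks belonged to Nfkbie, which encodes IκBε, and Nfkbiz, which encodes IκBζ.

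**Figure D2:**
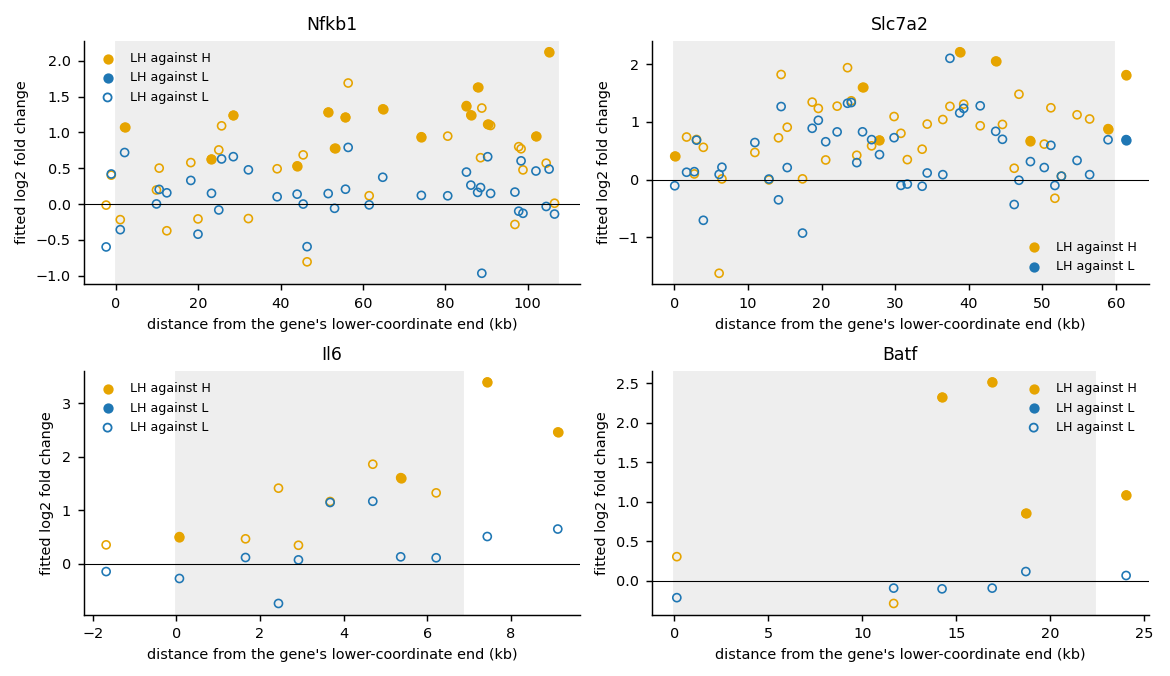
Fitted log2 fold change of each tested peak (vertical axis) by its distance from the lower-coordinate end of the gene (horizontal axis, kb) at Nfkb1, Slc7a2, Il6 and Batf; grey marks the gene. Filled points passed the test: LH against H (orange) has 15, 8, 4 and 4 of them, and LH against L (blue) has 1, beside Slc7a2.

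Genes of metabolism and of small inflammatory mediators followed. Of 130 peaks of 12 genes, 17 (13.1%) were higher in LH than in H and 1 lower, with a median of 0.43. Slc7a2, a transporter of cationic amino acids that supplies arginine, held 8 of the 17, Nos2, the inducible nitric oxide synthase, 4, and Ptgs2, which encodes cyclooxygenase-2, 3. The Nos2 peak at chr11:78959292-78963606, which also overlaps Lgals9, went from 10.9 and 8.1 CPM in H to 21.0 and 18.2 in LH. L read 25.6 and 17.7 there and Ctrl 2.84 and 2.22, so HMW alone stood between Ctrl and the groups with LPS. Acod1, which makes the metabolite itaconate, rose from 188 and 206 CPM to 285 and 293 (0.55 ± 0.08, edgeR adjusted p = 1.86e-08), with 254 and 259 in L. The lower peak was in Ptges, a prostaglandin E synthase, of which another peak rose.

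Cytokine genes had higher and no lower peaks. Of 97 peaks of 19 genes, 12 (12.4%) were higher in LH than in H and 0 lower (0 also by DESeq2, with no adjusted p for 28, and 6 at an unadjusted p under 0.05), with a median of 0.33. The 12 belonged to Il1a, Il1b, Il6 (4 of its 11 peaks), Il10, Il12a, Il18, Il33, Csf3 and Ebi3. Il6, an acute-phase cytokine, had its 2 largest changes just downstream of the gene. The peak 32 bp from it (chr5:30020007-30021085) read 0.381 and 0.345 CPM in H and 4.08 and 3.81 in LH, a rise of 3.40 ± 0.47 (log2, edgeR adjusted p = 4.86e-09), against 2.97 and 2.59 in L and 0.328 and 0.193 in Ctrl. The peak 1276 bp away (chr5:30021251-30023211) read 1.27 and 1.03 CPM in H and 6.62 and 6.35 in LH, against 4.52 and 3.77 in L and 0.874 and 0.965 in Ctrl. H stood near Ctrl at this site (H against Ctrl 0.34 ± 0.49, edgeR adjusted p = 0.735), and LH rose over H by 2.47 ± 0.33 (adjusted p = 4.04e-09). The Il6 promoter peak rose with HMW alone, from 6.88 and 8.88 CPM in Ctrl to 12.9 and 15.8 in H (0.85 ± 0.17, adjusted p = 0.000114), and read 22 and 18.4 in LH and 24.9 and 24.2 in L. Its gain over H was 0.51 ± 0.14 (adjusted p = 0.0192), a call lost without LH replicate 1 or H replicate 1. Il12a, which encodes the p35 subunit of IL-12, rose from 5.27 and 4.57 CPM in H to 13.1 and 13.1 in LH (1.4 ± 0.20). Ebi3, a subunit of IL-27, rose by 0.78 ± 0.13 in a peak that also overlaps Zfp119b. The largest peaks of Tnf (0.27 ± 0.10, adjusted p = 0.126), Il1b (0.21 ± 0.16) and Il12b (-0.52 ± 0.23) did not pass.

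**Figure D3:**
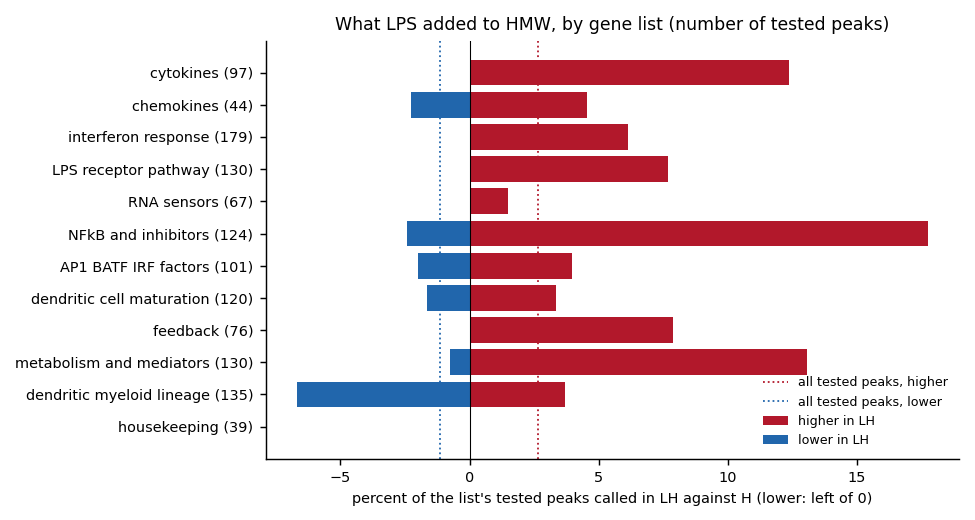
Percent of each gene list's tested peaks (number in brackets) called higher (red, right of 0) or lower (blue, left of 0) in LH than in H, with dotted lines at the 2.65% and 1.13% of all tested peaks. NF-κB genes reach 17.7% higher, metabolism and mediators 13.1% and cytokines 12.4%, and the dendritic and myeloid lineage list has the longest bar to the left, 6.67%.

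Interferon response genes rose at fewer of their peaks. Of 179 peaks of 28 genes with a tested peak (30 listed), 11 (6.15%) were higher in LH than in H and 0 lower (0 by DESeq2, with no adjusted p for 54, and 5 at an unadjusted p under 0.05), with a median of 0.12. Ifit2, an antiviral RNA-binding protein, had 27.2 and 35.7 CPM in H and 63.1 and 61.3 in LH over its broad peak (chr19:34572687-34579247), with 59.0 and 67.5 in L and 8.85 and 5.02 in Ctrl. The gain over H was 0.99 ± 0.12 (edgeR adjusted p = 9.81e-12), and LH against L did not pass (-0.02 ± 0.11, adjusted p = 0.979). For Usp18, a protease that removes ISG15 and restrains interferon signalling, H against Ctrl did not pass (0.59 ± 0.39, adjusted p = 0.366). Its peak read 1.97 and 0.772 CPM in Ctrl, 2.67 and 1.21 in H, 6.22 and 8.20 in L and 11 and 8.57 in LH. LH against H was 2.28 ± 0.27 there. Rsad2, which encodes viperin, rose from 79.8 and 93.2 CPM to 131 and 131 (0.60 ± 0.09). For Ifnb1 itself, LH against H was 0.25 ± 0.29 (adjusted p = 0.743) and LH against L 0.21 ± 0.28 (0.909), at 2.72 and 3.97 CPM in LH.

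Among chemokines, 2 of 44 peaks (4.55%) were higher in LH than in H and 1 (2.27%) lower, beside 2.65% and 1.13% of all tested peaks. With so few called peaks, the list is not read as differing from all peaks. Ccl5, which attracts T cells, rose from 31.0 and 29.5 CPM to 59.5 and 46.0 (0.81 ± 0.11) in a peak that also overlaps Heatr9. The peak 428 bp from Ccl4 rose by 0.54 ± 0.17, a call lost in 8 of the alternative settings. Cxcl1, a neutrophil attractant, was the chemokine peak that fell: H libraries were high at 6.03 and 5.60 CPM, and LH (2.97 and 3.33), L (2.76 and 3.07) and Ctrl (2.19 and 2.22) low. LH against H was -0.89 ± 0.28 (edgeR adjusted p = 0.0427). The call was lost in 8 of the alternative settings, among them those without either LH or either H library. Cxcl10, which attracts T cells through CXCR3, read 52.7 and 48.0 CPM in H and 58.5 and 50.2 in LH (0.11 ± 0.10, adjusted p = 0.658), groups that overlap.

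Genes of the LPS receptor pathway were higher in LH than in H at 10 of 130 peaks (7.69%) and lower at 0 (0 by DESeq2, with no adjusted p for 29, and 3 at an unadjusted p under 0.05). They belonged to 7 of 18 genes: Ly96 (MD-2), Tirap, Irak2, Irak3, Traf3, Map3k7 and Map3k8. Irak3, an inhibitory kinase of the pathway, rose from 6.86 and 6.29 CPM to 11.6 and 13.5 in its strongest peak (0.92 ± 0.20). Among 76 peaks of feedback genes, 6 (7.89%) were higher and 0 lower by edgeR (0 by DESeq2, with no adjusted p for 18, and 3 at an unadjusted p under 0.05). Il1rn, the antagonist of the IL-1 receptor, went from 10.4 and 10.7 CPM to 21.8 and 19.99 (1.00 ± 0.15), and Ptpn22, Socs3 and Zc3h12a had the others, beside a further Il1rn peak. RNA sensor genes had 1 higher peak of 67 (1.49%), in Ifih1, which encodes MDA5 (1.34 ± 0.35, adjusted p = 0.00861 by edgeR, lost without LH replicate 2 or either H replicate). That share lies below the 2.65% of all peaks.

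Of the AP-1, BATF and IRF factors, Batf alone rose, at 4 of its 6 peaks; over the list, 4 of 101 peaks were higher (3.96%) and 2 lower. BATF pairs with JUN proteins and IRF4 or IRF8 on DNA. Its largest peak (chr12:85704475-85706349) had 32.5 and 33.4 CPM in H, 31.6 and 30.4 in Ctrl, 60.2 and 58.7 in LH and 54.8 and 54.9 in L. H stood near Ctrl, and LH near L. The fold change was 0.85 ± 0.10 (log2, edgeR adjusted p = 3.76e-11). Both lower peaks were in Maff, a small MAF factor. Dendritic maturation genes had 4 of 120 peaks higher (3.33%), in Cd83, Cd86, Cd274 (PD-L1) and Pdcd1lg2 (PD-L2), and 2 lower (1.67%), in Icam1 and Pdcd1lg2. Both shares lie near those of all tested peaks, 2.65% higher and 1.13% lower.

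Myeloid lineage genes had more lower than higher peaks. Of 135 peaks, 9 (6.67%) were lower in LH than in H and 5 (3.70%) higher, beside 1.13% and 2.65% of all tested peaks. The lower peaks included ones of Spi1 (PU.1), Cebpa, Itgam (CD11b), Csf1r, Zbtb46 and Klf4, and the higher ones belonged to Itgax, Adgre1 (F4/80) and Mertk. The list summed to 757 to 801 CPM in LH, 814 to 856 in H and 885 to 906 in L. At Csf1r, the receptor for M-CSF, Ctrl had 15.3 and 13.9 CPM, L 9.82 and 9.06, H 12.7 and 8.88, and LH 5.38 and 6.03. LH was the lowest group, with -0.94 ± 0.22 against H (adjusted p = 0.00274 by edgeR) and -0.73 ± 0.22 against L (0.203). Without LH replicate 1 or H replicate 1 the call against H was lost. Among the lists of other cell types, 3 of 40 peaks of plasmacytoid genes (7.5%) were higher in LH than in H, beside 2.65% of all tested peaks. All 3 were in Tcf4, which has 33 of the 40, so these calls rest on 1 gene. That list summed to 189 to 195 CPM in H and 215 to 217 in LH. Of 17 peaks of B cell genes, 1 (5.88%) was higher, near Ms4a1, too few to set the list apart from all peaks. Of the 39 housekeeping peaks, 0 passed by edgeR or DESeq2 (no adjusted p for 9 by the latter), with 2 higher and 1 lower at an unadjusted p under 0.05.

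**Figure D4:**
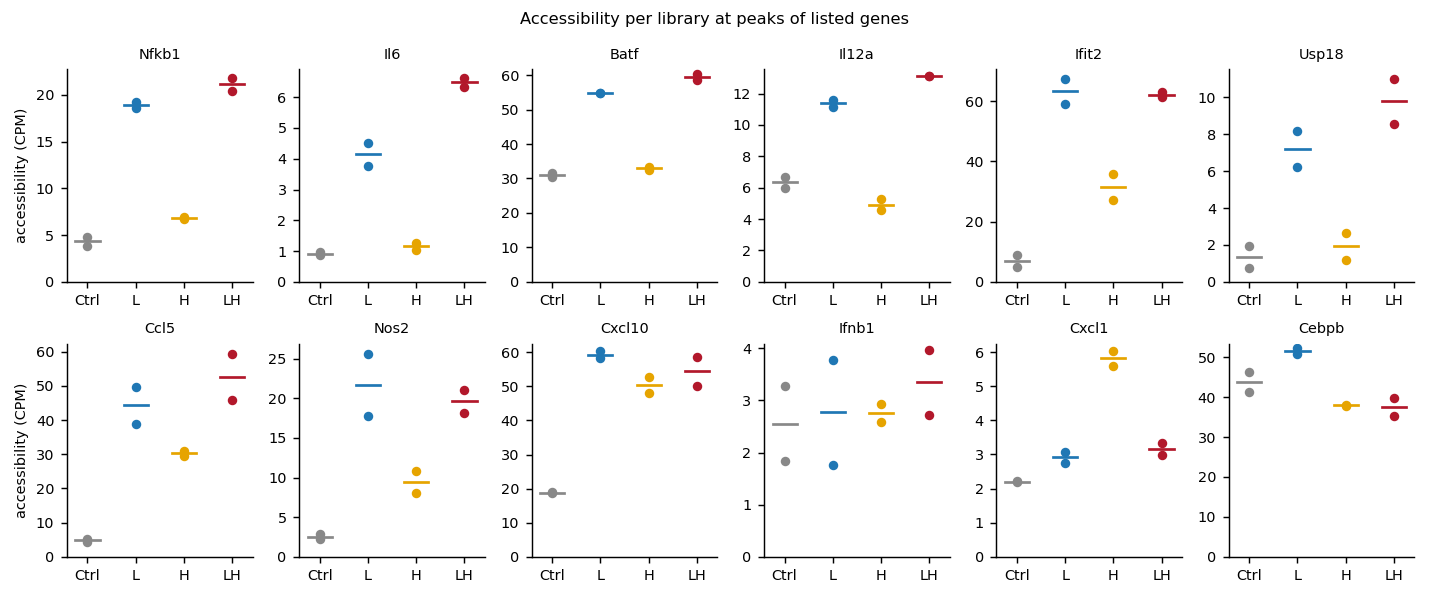
Accessibility (CPM) in each library (points) with the group mean (bar) at 12 peaks of listed genes, for Ctrl, L, H and LH. At Nfkb1, Batf, Il12a and Usp18 the LH and L libraries are high and H near Ctrl; at Ifit2, Ccl5 and Nos2 H is intermediate; Cxcl1 is high in H; Cebpb is high in L.

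Promoter sequences under the changed peaks were searched for motifs. Promoter windows of 300 bases (250 before and 50 after the RefSeq start, GRCm38.p6) overlapped a tested peak at 12073 starts. The 93 windows under peaks higher in LH than in H held the AP-1 motif TGANTCA in 20 cases (21.5%), against 4.95% of the 12073 and 6.99% of all 21263 windows, open or not. For the C/EBP motif TTGCNNAA the shares were 18.3%, 8.35% and 10.2%. The interferon response motif was in 9.68% against 3.23% of the 12073, the NF-κB motif in 12.9% against 6.57%, and the ETS motif GAGGAAGT in 6.45% against 3.42%. Under the 261 windows with a lower peak, AP-1 was in 3.07%, C/EBP in 9.20%, interferon in 3.07%, NF-κB in 10.7% and ETS in 4.21%. The 93 windows had a median GC content of 53%, against 61.7% for the 12073 and 63.3% for the 261. The part of GC content in these shares was not tested. Only 216 of the 3168 higher peaks (6.82%) lay within 1 kb of a gene end, so most were not searched. Both strands were searched, and a match is a description of letters, not a binding site. The promoters of Il6, Ptgs2, Lcn2 and Cxcl1 are shown because their peaks passed the test in LH against H and their windows hold such motifs; they were chosen after their values were seen. Capitals mark the matches: AP-1 at -249, C/EBP at -128 and NF-κB at -44 in Il6, C/EBP at -69 in Ptgs2 and at -216 in Lcn2, and NF-κB at -89 and, overlapping, at -71 and -70 in Cxcl1, counted from the start.
Il6 (chr5:30012864-30013163, + strand): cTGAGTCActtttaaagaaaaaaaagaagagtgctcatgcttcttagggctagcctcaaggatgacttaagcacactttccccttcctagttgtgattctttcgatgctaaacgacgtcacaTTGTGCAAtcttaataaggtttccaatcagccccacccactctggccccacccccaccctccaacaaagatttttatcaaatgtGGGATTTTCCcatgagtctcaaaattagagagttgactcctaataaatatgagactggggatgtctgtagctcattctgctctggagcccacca
Ptgs2 (chr1:150099781-150100080, + strand): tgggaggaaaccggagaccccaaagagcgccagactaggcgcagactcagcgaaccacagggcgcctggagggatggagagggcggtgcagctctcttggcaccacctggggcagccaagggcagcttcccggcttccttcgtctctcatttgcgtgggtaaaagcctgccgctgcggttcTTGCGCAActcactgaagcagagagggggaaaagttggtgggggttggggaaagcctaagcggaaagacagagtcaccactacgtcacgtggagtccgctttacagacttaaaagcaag
Lcn2 (chr2:32387690-32387989, - strand): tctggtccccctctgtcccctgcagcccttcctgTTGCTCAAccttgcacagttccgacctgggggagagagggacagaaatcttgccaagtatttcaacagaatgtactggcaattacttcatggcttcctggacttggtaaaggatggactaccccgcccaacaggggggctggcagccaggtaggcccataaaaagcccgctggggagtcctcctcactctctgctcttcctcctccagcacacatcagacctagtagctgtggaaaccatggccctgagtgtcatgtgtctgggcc
Cxcl1 (chr5:90890995-90891294, + strand): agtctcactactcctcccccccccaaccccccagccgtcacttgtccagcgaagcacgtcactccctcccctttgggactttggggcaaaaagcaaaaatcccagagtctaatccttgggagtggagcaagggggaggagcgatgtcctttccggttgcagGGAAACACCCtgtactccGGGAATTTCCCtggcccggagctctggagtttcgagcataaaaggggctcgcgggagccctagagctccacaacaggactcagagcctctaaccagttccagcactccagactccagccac
At Lcn2, which encodes the iron-binding protein lipocalin 2, H libraries read 2.73 and 2.76 CPM and LH libraries 10.4 and 9.44, with 10.3 and 8.30 in L (LH against H 1.85 ± 0.25, edgeR adjusted p = 1.85e-09). Ptgs2 rose from 13.3 and 10.2 to 21.3 and 19.5 (0.79 ± 0.15, lost without H replicate 2), where L read 16.1 and 17.5 and the LH libraries lay above all others.

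What HMW added to LPS was small, and the 2 directions differed in where the peaks lay. The 30 peaks higher in LH than in L had a median log2 change of 0.89 and were 6.67% within 1 kb of a gene end, against 14.3% of all tested peaks. The 47 lower peaks had a median of -0.63, and 31 of them (66.0%) lay within 1 kb of a gene end. The lower peaks were also high ones, with a median of 22.9 CPM over L, H and LH against 2.14 for all peaks, and the 32 promoter windows under them had a median GC content of 73.3% against 61.7%. Over all peaks within 1 kb of a gene end, LH lay below L by a median of 0.08 on the log2 scale, and elsewhere above it by 0.02. The shift was not particular to L: against H the medians were -0.076 near gene ends and 0.006 elsewhere. Of the peaks lower in LH than in H, 24.1% lay within 1 kb of a gene end, and of the higher ones 6.82%. The mitochondrial share was lower in L, while those of H and LH overlapped. The part of these shares in the result was not tested. With a separate scaling for peaks near gene ends, an alternative added after the data were seen, 27 peaks were higher and 22 lower. Scaling that depends on abundance gave 39 higher and 32 lower, and scaling by total counts 19 higher and 337 lower, with the median of all peaks moved by -0.12.

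Of the 5 peaks of the 30 with the largest change, 4 lay in Aldh1l2, Slc25a15, Acot9 and Ikzf1 and the other near Wdr36. Aldh1l2, a mitochondrial enzyme of folate metabolism, had 0.424 and 0.377 CPM in L and 1.55 and 3.25 in LH (2.54 ± 0.50, edgeR adjusted p = 0.00717), with 1.4 and 0.689 in H. Slc25a15, the mitochondrial ornithine carrier, had 3.93 and 3.76 CPM in Ctrl, 1.20 and 1.35 in L, 3.05 and 2.15 in H and 3.96 and 5.95 in LH. The L libraries were the low ones there. Acot9, an acyl-CoA thioesterase, and Ikzf1, which encodes the zinc finger factor Ikaros, had the same order: L was lowest at 1.27 and 1.29 CPM and at 1.55 and 1.56, and LH highest at 5.07 and 3.73 and at 5.44 and 3.81. Their changes were 1.78 ± 0.38 and 1.57 ± 0.36. Of the 30, 8 (26.7%) had risen in H against Ctrl and 3 (10.0%) had fallen, beside 5.21% and 5.46% of all peaks. The 47 peaks lower in LH than in L also held more that had risen, 8 (17.0%), than had fallen, 3 (6.38%). H against Ctrl shares no library with LH against L.

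The 47 lower peaks included ones in Rxra, Ptpn1, Kmt2a, Dnmt3a, Kdm2b and Tab1. Rxra, a nuclear receptor that partners others, had 10.7 and 11.4 CPM in L and 6.5 and 4.6 in LH (-0.98 ± 0.22, edgeR adjusted p = 0.0311), with 7.18 and 7.58 in H. A peak 14266 bp from Tbc1d8 fell by 1.29 on the log2 scale (SE 0.30, edgeR adjusted p = 0.0499), a call lost in 12 of the alternative settings. Of the listed genes, only Cmpk2 and Slc7a2 had a peak that rose between LH and L and only Zbtb46 and Cebpb one that fell. Cebpb, which encodes the transcription factor C/EBPβ, read 50.9 and 52.4 CPM in L, 35.3 and 39.8 in LH, 38.1 and 37.8 in H and 41.2 and 46.3 in Ctrl (LH against L -0.46 ± 0.11, adjusted p = 0.0384). L was the high group there, and H and LH overlapped. The cytokine, chemokine, NF-κB, LPS receptor, maturation and feedback lists had 0 peaks called between LH and L by edgeR. DESeq2 also called 0, but gave no adjusted p for most of their peaks: 69 of 97 for cytokines, 29 of 44 for chemokines, 71 of 124 for NF-κB, 78 of 130 for the LPS receptor pathway, 83 of 120 for maturation and 45 of 76 for feedback. At an unadjusted p under 0.05 (edgeR), 3 cytokine peaks were higher and 6 lower. The counts were 2 and 3 for chemokines, 7 and 5 for NF-κB, 4 and 6 for the LPS receptor pathway, 0 and 11 for maturation and 2 and 10 for feedback. Over all tested peaks, 8.22% passed that threshold in either direction. Other lists gave 8 and 20 of 179 for interferon response, 1 and 22 of 135 for myeloid lineage and 1 and 11 of 101 for AP-1, BATF and IRF factors. Metabolism gave 12 and 2 of 130, and RNA sensors 4 and 4 of 67. Near Gbp5, an interferon-induced GTPase, L read 19.1 and 16.1 and LH 27.7 and 33.8 CPM (0.81 ± 0.19, adjusted p = 0.0691), which did not pass.

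The pair exceeded both single ligands with the lowest p-values at Cmpk2, Nav3 and Slc7a2. Cmpk2 encodes a mitochondrial nucleotide kinase that is induced by interferon and lies beside Rsad2. Its peak (chr12:26479545-26481889, overlapping the gene) read 1.86 and 2.41 CPM in Ctrl, 9.26 and 7.28 in L, 8.45 and 7.5 in H, and 16.2 and 18.4 in LH. L and H overlapped, and both LH libraries lay above all 4. LH was 2.10-fold above L (log2 1.07 ± 0.20, edgeR adjusted p = 0.00243) and 2.16-fold above H (1.11 ± 0.20, adjusted p = 2.57e-05). Nav3 encodes a microtubule-associated protein of the navigator family, and its peak (chr10:109985445-109987006) read 23.7 and 22.8 CPM in L, 19.4 and 18.9 in H and 37.7 and 37.9 in LH, with 15.1 and 11.9 in Ctrl. LH was 0.70 ± 0.13 above L and 0.98 ± 0.14 above H on the log2 scale.

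At Slc7a2 the peak beyond both singles lay 292 bp from the higher-coordinate end of the gene (chr8:40922362-40925051). It read 4.92 and 3.09 CPM in Ctrl, 8.45 and 8.79 in H, 17.9 and 19.5 in L and 28.3 and 32.4 in LH, so that the groups stood in that order without overlap. LH was 0.69 ± 0.14 above L (edgeR adjusted p = 0.00787) and 1.82 ± 0.15 above H (adjusted p = 4.97e-21). Of the 46 tested peaks of the gene, 36 had a fitted change above 0 in LH against L and 43 in LH against H, with medians of 0.32 and 0.84, but peaks of a gene are not independent. When the larger of the 2 p-values of each peak was adjusted over all peaks, these 3 loci passed (0.0145 for Cmpk2 and for Nav3, 0.0446 for Slc7a2). Against H all 3 calls were kept with any 1 library left out. Against L, that of Cmpk2 was lost without LH replicate 2 or L replicate 2, that of Slc7a2 without LH replicate 2 or either L replicate, and that of Nav3 without any 1 of the 4. Among the other peaks above both were ones near Prss12 and Wdr36. The peak near Prss12 read 7.98 and 6.42 CPM in L, 6.16 and 6.72 in H and 10.5 and 16.1 in LH, and its call against H was lost without LH replicate 2. Others were in Edem3, Wdr49, Gpat3, Tfec and Sox5, and far from Zfp608. Tfec, a factor of the MiT family found in myeloid cells, had 22.3 and 19.4 CPM in L, 14.0 and 16.9 in H and 31.7 and 31.2 in LH.

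**Figure D5:**
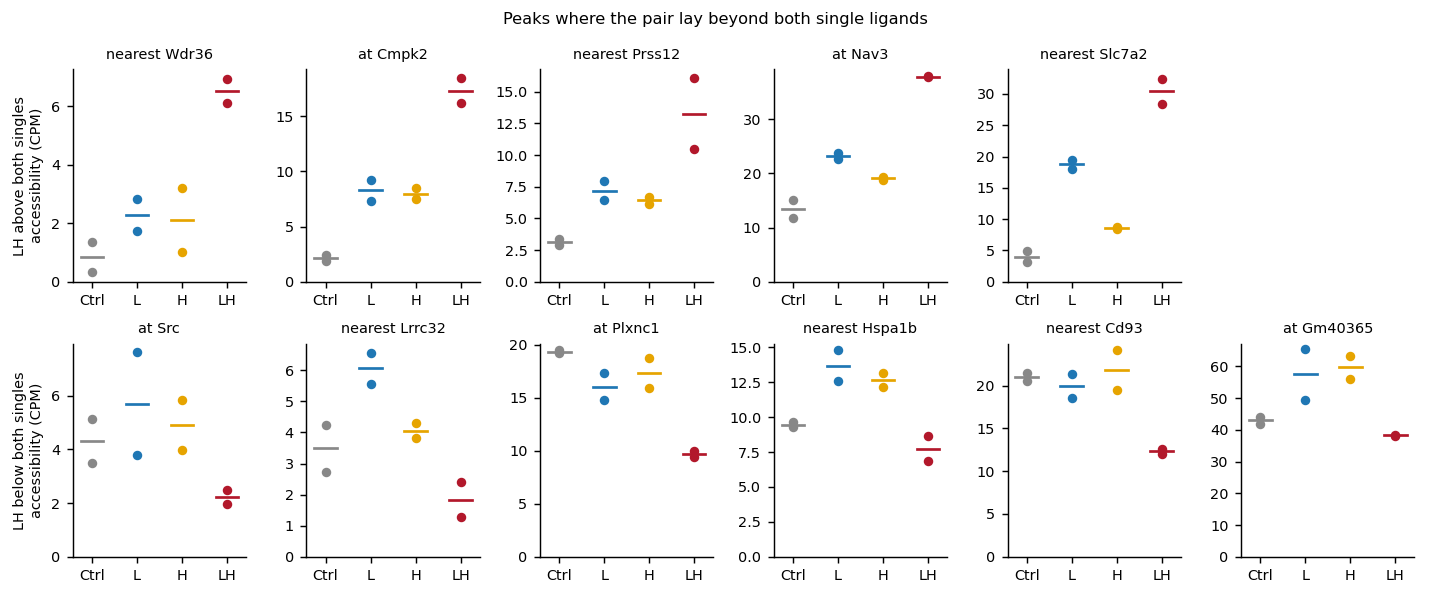
Accessibility (CPM) in each library (points) with the group mean (bar) in Ctrl, L, H and LH, at 5 peaks where LH was above both single ligands (top) and 6 where it was below both (bottom). Both LH libraries lie beyond all 4 single-ligand libraries in each panel, for example 16.2 and 18.4 CPM at Cmpk2 against 7.28 to 9.26.

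The 16 peaks below both singles included Plxnc1, Zbtb46 and Src, and 6 neighbours on chromosome 6. At Plxnc1, a plexin receptor, LH read 9.46 and 10.0 CPM against 14.8 and 17.3 in L, 15.9 and 18.8 in H and 19.6 and 19.2 in Ctrl (-0.73 ± 0.16 against L, edgeR adjusted p = 0.028, and -0.83 ± 0.16 against H, adjusted p = 0.000143). The peak 43216 bp from Cd93, a C-type lectin-like receptor of myeloid cells, had the same shape, with 12.6 and 12.0 in LH and 18.6 to 24.2 in the other groups. Hspa1b, an inducible heat shock protein gene, had a peak 3267 bp away where LH was low and both singles were above Ctrl, which passed for L (adjusted p = 0.0217) and not for H (0.142). Ctrl read 9.29 and 9.65 CPM, L 12.6 and 14.8, H 12.2 and 13.2 and LH 6.87 and 8.65. Zbtb46, a factor that marks classical dendritic cells, read 30.3 and 31.5 CPM in L, 30.0 and 26.1 in H and 21.7 and 16.3 in LH in a peak overlapping the gene (-0.70 ± 0.13 and -0.56 ± 0.13). Src, a tyrosine kinase gene, and a peak 39030 bp from Lrrc32, which encodes GARP, had low signals, with 2.47 and 1.98 CPM and 2.41 and 1.27 CPM in LH. Calls against H were lost without LH replicate 2 or H replicate 1 for Zbtb46, Src and Lrrc32 (also without LH replicate 1 for Src and H replicate 2 for Lrrc32), and without LH replicate 1 or H replicate 2 for Hspa1b. Another 6 neighbouring broad peaks at chr6:47662902-47754688, among predicted genes Gm40363, Gm40365, Gm36327 and Gm40367, were also below both. Reads could be shared between copies there, so they are given as uncertain. In Thada, both LH libraries had 0 counts against 1.13 and 0.701 CPM in L and 1.02 and 0.086 in H, and no fold is given. H replicate 2 held 1 count there, so the difference from H rests on H replicate 1. When the larger of the 2 p-values was adjusted, 0 of the 16 remained (lowest 0.114).

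Libraries that also received PAM gave the additions of HMW and of LPS with PAM present in both groups compared, without sharing a library. HMW added to PAM and LPS (PLH against PL) changed 1 peak (0.000837%), and LPS added to PAM and HMW (PLH against PH) 296 (0.248%), 189 of them higher (0.158%) and 107 lower (0.0896%). DESeq2 turned that majority, with 197 higher and 257 lower, and scaling by total counts gave 191 and 55. With any 1 of its 4 libraries left out, the latter gave 51 to 97. Of the 30 peaks higher in LH than in L, 12 were above 0 in PLH against PL and 0 were called by edgeR or DESeq2 or had an unadjusted p under 0.05. Of the 47 lower ones, 8 were below 0 and 39 above, 12 of them at an unadjusted p under 0.05, against 50.1% of all peaks above 0. In PLH against PH, 45 of those 47 were above 0 and 11 were called higher. Of the 12 peaks above both singles, 5 were above 0 in PLH against PL and 6 in PLH against PH. Of the 16 peaks below both singles, 12 were above 0 in PLH against PL and 15 in PLH against PH. In PLH against PH, 6 of the 16 were called higher and 0 lower by edgeR. DESeq2 also called 0 lower, with no adjusted p for 2 of the 16, and 1 was lower at an unadjusted p under 0.05. The 6 called higher were the neighbouring broad peaks on chromosome 6 that are given above as uncertain. They are also among the 11 called higher of the 47. Cmpk2 read 7.97 and 8.05 CPM in PL, 6.64 and 6.74 in PH and 8.48 and 5.75 in PLH. At Slc7a2, PL (31.6 and 27.3) and PH (33.6 and 36.9) already stood where LH stood, and PLH read 26.5 and 28.5. Of the 3168 peaks higher in LH than in H, 1401 were above 0 in PLH against PH, 18 were called higher and 7 lower. The level without LPS was not the same with PAM. At the 5 named peaks with the largest gain of LH over H, PH already stood near or above LH. Near Ibtk, PH read 28.6 and 28.4 CPM, where H read 1.33 and 0.345. The part of PAM in these counts was not tested. Of the 1344 lower in LH than in H, 686 were below 0 in PLH against PH, and more were called higher (56) than lower (11).

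The difference between the pair and the sum of the single effects on the log2 scale (LH - L - H + Ctrl) was called at 5833 peaks (4.88%), 2703 positive (2.26%) and 3130 negative (2.62%). Interferon response genes had 53 of 179 peaks negative (29.6%, against 2.62% of all peaks) and 0 positive by edgeR (0 by DESeq2, with no adjusted p for 73, and 1 at an unadjusted p under 0.05). Rsad2 read 25.6 and 28.0 CPM in Ctrl, 121 and 129 in L, 79.8 and 93.2 in H, and 131 and 131 in LH, so LH stood near L (interaction -1.62 ± 0.13, edgeR adjusted p = 2.9e-21). Ccl5 and Rsad2 had the 2 lowest p-values among negative peaks, and the value at Ccl5 was -2.40 ± 0.19; other named peaks lay further from 0, such as Myo1c at -4.86 ± 0.98 (adjusted p = 0.000309) and Samd12 at 3.07 ± 0.74 (0.00374 by edgeR, and 0.144 with libraries thinned to one depth). Chemokine (7 of 44), maturation (18 of 120), cytokine (13 of 97, with 1 positive) and metabolic genes (15 of 130) were also mostly negative where called. Scaling by total counts left 435 positive and 11552 negative. Leaving out Ctrl replicate 1 left 2722 calls, L replicate 1 2883, LH replicate 2 3247, H replicate 2 3462 and H replicate 1 3655. The positive peaks with the 2 lowest p-values, in Wdr49 and Trf, had fallen with each single ligand. In Wdr49, Ctrl read 24.3 and 23.3 CPM, L 10.7 and 16.0, H 10.6 and 11.6, and LH 21.0 and 21.5 (1.76 ± 0.22), so that the pair stood nearer Ctrl than either single. In Trf, which encodes transferrin, Ctrl read 48.1 and 43.8, and L, H and LH all lay between 13.2 and 21.5 (1.52 ± 0.20). At the loci named above where the pair exceeded both singles with the lowest p-values, the difference from the sum did not pass. It was -0.82 ± 0.35 at Cmpk2 (edgeR adjusted p = 0.16), 0.19 ± 0.20 at Nav3 (0.674) and -0.43 ± 0.25 at Slc7a2 (0.366).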

How the data were processed

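ATAC-seq reads were counted over one set of peaks in 36 libraries, and the authors deposited raw counts per peak and library. The submitters' processing notes name mm10, Bowtie2 2.2.9, MACS2 (version 1.4 as listed), bedtools and featureCounts. Duplicate removal, read-end shifts and pooling for peak calling are not given in the sources used here. The peak over the mitochondrial genome was left out, and peaks passing filterByExpr (minimum count 10) were scaled by TMM, giving 119464 of 119751. edgeR 4.0.16 fitted a quasi-likelihood model to all 18 groups (18 residual degrees of freedom), with Benjamini-Hochberg adjustment over all tested peaks and calls at 0.05. LH above or below both means called in that direction against L and against H. Genes (RefSeq GRCm38.p6, same coordinates as mm10) were assigned by overlap or nearest end, lists by peaks in or within 2 kb of a gene. Named peaks were the 5 (both singles: 6) largest changes per direction, at a mean of at least 1 CPM and with both LH libraries beyond the singles'. Without these limits, the 2 lowest p per direction for the interaction and up to 4 genes per list by p were named. The largest peaks of Tnf, Il6, Il1b, Il12b, Ifnb1, Cxcl10, Ifit1 and Rsad2 were named whatever their values. Other values given (Tfec, Lcn2, the Il6 peak nearest the gene's downstream end, the Myo1c and Samd12 interactions) were chosen after they were seen. Members and lists were chosen with earlier results of these data known. The test was also run on simulated counts of Ctrl, L, H and LH, with a constant spread and without low peaks. That run does not cover low peaks or library shares that differ between groups. Replicate numbers did not pair libraries (r = -0.0150 to 0.00699 over 6 group pairs). Each count of 0 allows up to 3 counts.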

Additional observations from a re-analysis of the deposited data

Results flagged for a closer look

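The effect of HMW differed with and without LPS at 5833 peaks by edgeR's interaction test, 2703 with a positive and 3130 with a negative value. The 2 peaks with the lowest p-values in each direction were at Wdr49 (1.758 on the log2 scale) and Trf (1.523), and at Ccl5 with Heatr9 (-2.403) and Rsad2 (-1.62); other named peaks had values further from 0. All 4 hold 2 libraries in each of the 4 groups, and their values per library stand in the report. The interaction uses the Ctrl libraries, whose mitochondrial share (60.1% to 61.9%) was above that of L, H and LH; its part in the result was not tested.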

How the results depend on the processing

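Of 85 called values of single peaks, 1498 of 1684 checks over the alternatives kept the call, 186 lost it and 0 reversed, and 32 values kept it throughout. Of 63 uncalled values, 4 became called in 6 of 1242 checks (Traf3, Fscn1 and Gbp5 between LH and L, Tnf between LH and H). DESeq2 gave no adjusted p in 27 further checks. The count between LH and L was 161 by DESeq2, 356 with total counts (5.34% higher), 131 with only Ctrl, L, H and LH fitted (60.3% higher), 125 with tagwise dispersion, 27 thinned to one depth, 49 with TMM by position class, and 0 to 79 with 1 replicate left out. Between LH and H it was 2991 thinned and 1909 to 4694 with 1 left out. For the interaction it was 11987 with total counts, 3807 thinned, and 2722 to 5180 with 1 left out (2722 without Ctrl replicate 1). Above both it was 30 by DESeq2, 7 with total counts, 21 with only these groups, 4 thinned, 3 by the larger p, and 0 to 14 with 1 left out. Below both it was 56 with total counts, 8 thinned, 8 by position class, 0 by the larger p, and 0 to 16 with 1 left out. With PAM, PLH against PL gave 0 by DESeq2, 3 with total counts, 0 with offsets, 0 at a minimum count of 30, 0 by position class and 0 to 21 with 1 left out, and PLH against PH 454 by DESeq2, 185 thinned and 51 to 97. With 1 left out, L against Ctrl gave 16320 to 19793, H against Ctrl 5174 to 8707, LH against Ctrl 16180 to 18945 and L against H 1766 to 2370. The replicate block gave 74 for LH against L, 4476 for LH against H, 5788 for the interaction and 0 for PLH against PL. Leaving out 1 of 2 assumes that the lone library varies like the other groups. The cause of these shifts was not tested. Depth limits low peaks: 3 counts are the floor of a count of 0.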
